A study of Rattus norvegicus with 18 samples.

Results

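The 10 genes described here encode the enzymes that turn squalene into cholesterol in rat liver: Sqle, Lss, Cyp51, Tm7sf2, Msmo1, Nsdhl, Hsd17b7, Ebp, Sc5d and Dhcr7. They were chosen by gene symbol, from textbook knowledge of the pathway, among 14217 genes measured on Affymetrix arrays. Where several probe sets (groups of short probes against 1 transcript) measured a gene, the one with the highest mean signal over all arrays stood for it. No filter on dim genes was applied, so all 10 were tested.

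Livers came from adult male Sprague Dawley rats, in 3 groups of 6 arrays. The first group (HFD+PE) was fed a high fat diet and also received 150 mg per kg per day of an extract of pomegranate skin, the second (HFD) the high fat diet alone, and the third (chow) a chow diet. All were fed for 8 weeks and fasted overnight before the liver was taken, and RNA came from whole liver tissue. The labels describe the livers of the HFD group as fatty and those of the HFD+PE and chow groups as normal. What the diets and the extract contained is not stated in the labels. In the groups analysed here the extract was given only with the high fat diet. The labels call the arrays biological replicates. In 3 pairs of arrays (HFD+PE 3 and 4, HFD 1 and 2, chow 3 and 4), however, 0 probe sets lay more than 2 log2 units apart, while each of the other 150 pairs had 18 to 109 such probe sets. Each such pair was averaged and counted as 1 animal, an inference from the values, which left 5 animals per group and 15 in all. Other measures were less clear. The SD of probe set differences was 0.117 for HFD 1 and 2 (42.9% of probe sets equal) and 0.215 for chow 3 and 4 (20.2% equal). For HFD+PE 3 and 4 it was 0.260 (18.1% equal). Arrays of different groups could be as near as this last pair, such as chow 6 and HFD 2 (0.261, 20.4% equal). HFD+PE 3-4 may thus be 2 animals.

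Cholesterol is built in the endoplasmic reticulum from squalene, the last compound of the pathway that has no ring. Squalene is oxidised and folded into lanosterol, which then loses its extra methyl groups and has its double bonds moved and reduced until cholesterol remains. In liver the genes of this pathway are transcribed under the transcription factor SREBP-2 (gene Srebf2), which the sterol-sensing proteins Scap and Insig hold in the membrane when sterols are plentiful. SREBP-2 is therefore more active when the membrane holds little cholesterol.

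Promoters are shown for 5 of the enzymes because the 10 genes varied together between animals, as described further on. Each sequence is the 250 bases before the annotated start of transcription, read in the direction of the gene, from RefSeq on the rat build GRCr8. Capitals mark the motif CCAAT on either strand (CCAAT or ATTGG), which is the binding motif of the factor NF-Y, a known partner of SREBP. The promoter table held 9 of the 10 genes. Sqle was the other one.
Cyp51 promoter, chr4:30991443-30991692, plus strand: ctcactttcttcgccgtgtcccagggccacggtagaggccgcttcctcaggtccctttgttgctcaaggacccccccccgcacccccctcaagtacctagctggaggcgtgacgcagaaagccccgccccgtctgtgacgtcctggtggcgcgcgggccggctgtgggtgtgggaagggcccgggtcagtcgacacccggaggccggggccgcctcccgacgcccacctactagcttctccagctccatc
Tm7sf2 promoter, chr1:212789542-212789791, minus strand: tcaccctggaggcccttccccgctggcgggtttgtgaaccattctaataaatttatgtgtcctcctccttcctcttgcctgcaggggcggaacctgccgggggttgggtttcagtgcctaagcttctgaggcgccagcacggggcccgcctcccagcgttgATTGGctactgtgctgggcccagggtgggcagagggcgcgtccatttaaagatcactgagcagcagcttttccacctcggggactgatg
Msmo1 promoter, chr16:29746863-29747112, plus strand: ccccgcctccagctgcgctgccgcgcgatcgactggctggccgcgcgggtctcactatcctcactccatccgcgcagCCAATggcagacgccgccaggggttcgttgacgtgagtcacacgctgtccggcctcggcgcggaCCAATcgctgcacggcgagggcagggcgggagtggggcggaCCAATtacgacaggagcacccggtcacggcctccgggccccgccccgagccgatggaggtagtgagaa
Hsd17b7 promoter, chr13:84722755-84723004, minus strand: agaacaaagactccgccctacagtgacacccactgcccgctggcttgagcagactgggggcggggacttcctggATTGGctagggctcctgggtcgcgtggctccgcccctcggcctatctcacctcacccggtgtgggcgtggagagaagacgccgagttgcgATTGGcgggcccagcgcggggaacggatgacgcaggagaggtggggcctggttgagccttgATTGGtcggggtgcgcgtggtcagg
Sc5d promoter, chr8:51538278-51538527, minus strand: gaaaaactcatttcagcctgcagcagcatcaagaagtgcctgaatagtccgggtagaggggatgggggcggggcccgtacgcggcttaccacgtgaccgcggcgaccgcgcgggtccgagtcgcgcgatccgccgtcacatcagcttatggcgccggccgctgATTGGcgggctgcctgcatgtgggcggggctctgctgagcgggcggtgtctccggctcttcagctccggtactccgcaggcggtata

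CCAAT or its reverse occurred in 7 of the 9 promoters (Lss, Tm7sf2, Msmo1, Nsdhl, Hsd17b7, Ebp and Sc5d), against 34% of all 33469 promoters of the same length. Msmo1 had 3 copies, which began 173, 109 and 68 bases before the start, while Cyp51 and Dhcr7 had none in this window. GGGCGG or its reverse CCGCCC, the letters bound by Sp1, occurred in 8 of 9, against 30.5% of all promoters. TCACNCCAC, a form of the sterol regulatory element, was in 0 of 9 (0.974% of all promoters), on either strand, and CACGTG was in 1 of 9, that of Sc5d (5.59% of all). These counts describe letters in 1 window per gene.

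Levels are RMA signals on a log2 scale, so that differences are log2 ratios, and levels of different genes are not compared because their probes differ. In whole tissue, fewer cells of a type and less RNA per cell cannot be told apart. Sqle, squalene epoxidase, adds the first oxygen and is one of the controlled steps of the pathway. Its level was 4.0, 5.0, 7.75, 4.4 and 5.3 in the HFD+PE animals (labelled 1, 2, 3-4, 5 and 6, the order used throughout), against 6.8, 5.0, 5.4, 4.9 and 6.3 in the HFD animals (1-2, 3, 4, 5 and 6) and 6.2, 7.5, 6.75, 7.2 and 6.6 in the chow animals (1, 2, 3-4, 5 and 6). In the HFD+PE group 4 animals lay below every chow animal, and animal 3-4 lay above every animal of the study. The means were 5.29 ± 1.47 in HFD+PE, 5.68 ± 0.83 in HFD and 6.85 ± 0.51 in chow (SD, n = 5 each). Lss, lanosterol synthase, closes the rings. Its level was 6.6 to 8.25 (median 6.8) in HFD+PE, 6.9 to 7.6 (median 7.0) in HFD and 7.3 to 7.9 (median 7.6) in chow. Animal HFD+PE 3-4 held the 8.25, and the other 4 animals of that group, at 7.0 or less, lay under the lowest chow animal.

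Cyp51, lanosterol demethylase, removes the first of the extra methyl groups. Its level was 9.4, 10, 11.75, 9.5 and 10.3 in HFD+PE animals, against 11.5, 10.5, 10.5, 10.3 and 10.9 in HFD animals and 11.2, 12.0, 11.3, 11.5 and 11.6 in chow animals. Means were 10.19 ± 0.95 in HFD+PE, 10.74 ± 0.48 in HFD and 11.52 ± 0.31 in chow (SD, n = 5 each). Apart from HFD+PE 3-4 and HFD 1-2, no animal on the high fat diet reached the lowest chow animal. Tm7sf2, a sterol reductase that removes the double bond left by Cyp51, had levels of 7.4, 7.9, 10.4, 7.5 and 8.5 in HFD+PE animals, against 9.3, 8.3, 8.5, 8.2 and 9.0 in HFD animals and 9.3, 10.1, 9.7, 9.8 and 9.7 in chow animals. Animals on the high fat diet reached the chow levels only in HFD+PE 3-4, the highest of all 15 animals, and HFD 1-2, level with the lowest chow animal. Its means were 8.34 ± 1.23 in HFD+PE, 8.66 ± 0.47 in HFD and 9.72 ± 0.29 in chow (SD, n = 5 each).

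Msmo1, Nsdhl and Hsd17b7 act in turn to remove the other pair of methyl groups. Msmo1, a methylsterol oxidase, had levels of 7.5, 8.0, 10.4, 7.5 and 8.5 in HFD+PE animals, against 9.6, 8.2, 8.0, 8.6 and 9.6 in HFD animals and 9.6, 10.2, 9.3, 10 and 9.4 in chow animals. The HFD animals split into 2 at chow level, 1-2 and 6, and 3 below it. The means were 8.38 ± 1.20 in HFD+PE, 8.80 ± 0.76 in HFD and 9.70 ± 0.39 in chow (SD, n = 5 each). Nsdhl, the dehydrogenase that follows, had the smallest difference from chow of the 10 genes in both other groups, with levels of 10.4 to 11.55 (median 10.6) in HFD+PE, 10.7 to 11.1 (median 11) in HFD and 10.8 to 11.3 (median 11) in chow. Hsd17b7, the reductase that closes the cycle, had levels of 6.8 to 8.5 (median 7.3) in HFD+PE, 7.3 to 8.25 (median 7.9) in HFD and 7.7 to 8.8 (median 8.3) in chow. For both genes the highest HFD+PE animal was again 3-4, and the other 4 lay below the lowest chow animal.

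Ebp, the sterol isomerase that moves a ring double bond, was the member with the narrowest spread in chow. Its level was 9.5, 9.8, 10.4, 9.4 and 9.6 in HFD+PE animals, against 10.3, 9.9, 10.1, 9.8 and 10.1 in HFD animals and 10.2, 10.3, 10.35, 10.3 and 10.2 in chow animals. All HFD+PE animals but 3-4 and all HFD animals but 1-2 were under the lowest chow animal. Mean levels were 9.74 ± 0.40 in HFD+PE, 10.04 ± 0.19 in HFD and 10.27 ± 0.07 in chow (SD, n = 5 each). Sc5d, the desaturase that adds a double bond, had a small range: 10.6 to 11.05 (median 10.8) in HFD+PE, 10.9 to 11.1 (median 11) in HFD and 10.8 to 11.3 (median 11.3) in chow. Only 1 HFD+PE animal, number 1, was below the lowest chow animal for Sc5d. Dhcr7, the reductase that makes cholesterol in the last step, had levels of 8.5, 9.1, 10.75, 9.0 and 9.3 in HFD+PE animals, against 10.15, 9.3, 9.0, 9.7 and 9.9 in HFD animals and 9.9, 10.5, 10.3, 10.4 and 10.2 in chow animals. Its 4 lower HFD+PE animals lay under every chow animal, and HFD+PE 3-4 was the highest of all 15. It averaged 9.33 ± 0.85 in HFD+PE, 9.61 ± 0.46 in HFD and 10.26 ± 0.23 in chow (SD, n = 5 each).

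**Figure D1:**
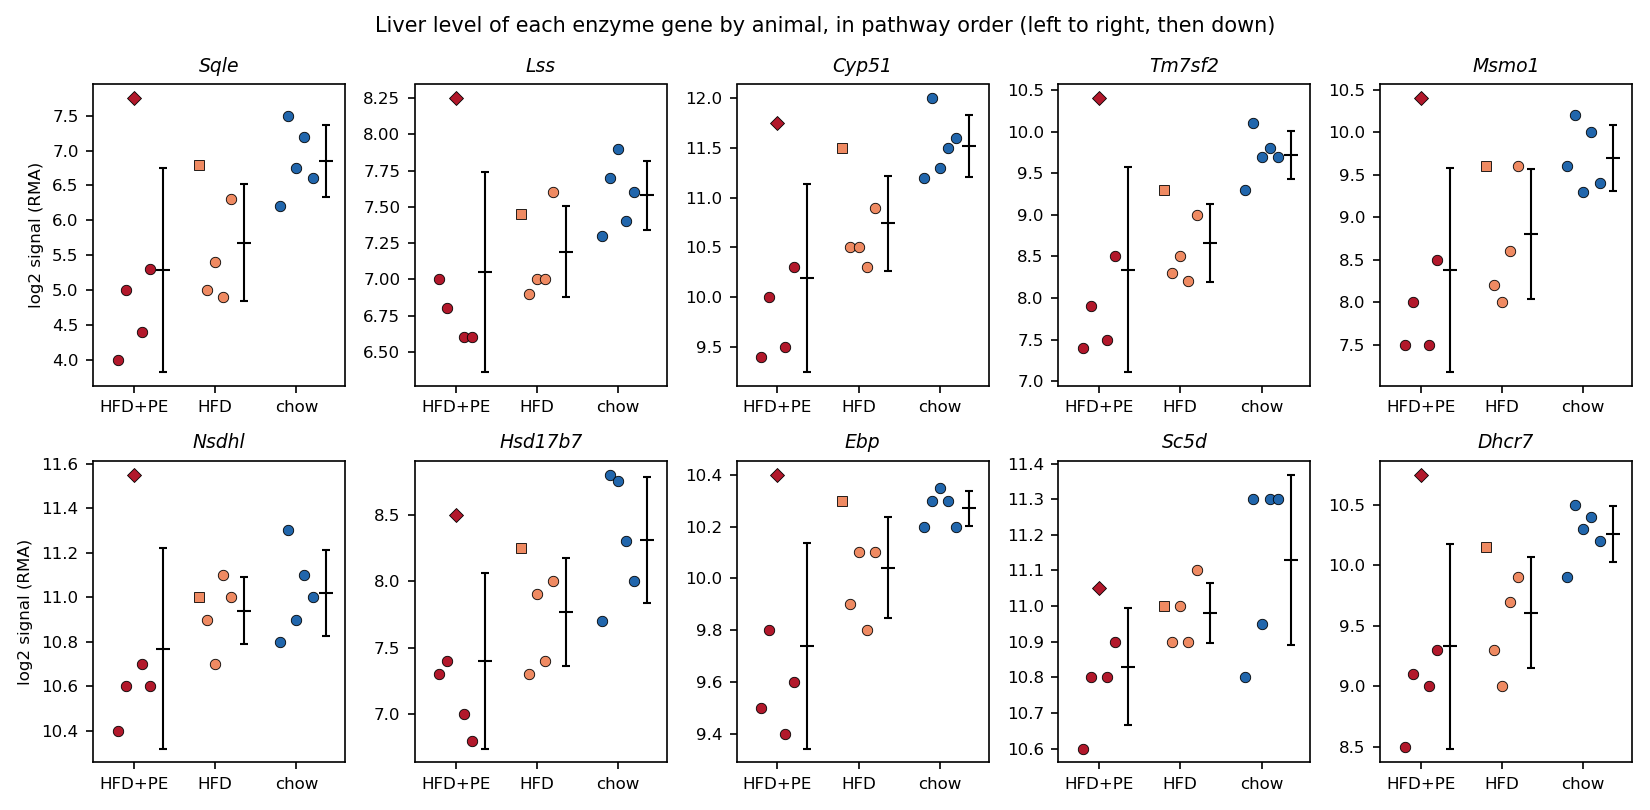
Level of each of the 10 genes (log2 RMA signal, y axis, with its own scale per gene) in 5 animals per group, HFD+PE, HFD and chow from left to right. Points are animals, the diamond is HFD+PE 3-4, the square is HFD 1-2, and the black bar is the mean ± SD. In 9 panels 4 HFD+PE animals lie below every chow animal, and in 7 the diamond lies above every chow animal. The matching shares over all genes were not computed.

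The order of the group means was the same for all 10 genes, lowest in HFD+PE, then HFD, then chow, but neighbouring groups overlapped. With all 15 animals, 0 of the 10 genes passed the test in any comparison, and neither did any other gene (0% of the 14217 genes in each of the 3 comparisons). That count over all genes depends on how the paired arrays are treated: for HFD+PE against chow it was 145 with 18 arrays as separate animals and 29 with the animal as a random block, with 0 of the 10 enzymes among them in either. The test was limma's moderated test, a linear fit across all genes, with Benjamini-Hochberg adjustment over all 14217 genes and a threshold of 0.05 on the adjusted p. The smallest adjusted p of any gene was 0.315 for HFD against chow, 0.993 for HFD+PE against HFD and 0.104 for HFD+PE against chow. Differences, unadjusted p-values and counts are therefore given as descriptions. The comparisons share groups of animals: chow stands in the first and the third, HFD in the first and the second, and HFD+PE in the second and the third.

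In HFD against chow all 10 genes had a lower mean in HFD, as did 46.6% of all genes. Of the 10, 3 had a lower level at an unadjusted p under 0.05 (Sqle, Cyp51 and Tm7sf2), against 3.57% of all genes, and the median difference of the 10 was -0.60, against 0 over all genes. Sqle differed by -1.17 (SE 0.55, 95% interval -2.33 to -0.01, limma adjusted p = 0.645), a ratio of 0.444 in HFD over chow. Tm7sf2 differed by -1.06 (SE 0.42, limma adjusted p = 0.578) and Cyp51 by -0.78 (SE 0.35, limma adjusted p = 0.625). Nsdhl (-0.08), Sc5d (-0.15) and Ebp (-0.23) differed least, while Dhcr7, the last enzyme, differed by -0.65 (SE 0.31, limma adjusted p = 0.654). Msmo1 (-0.90), Hsd17b7 (-0.54) and Lss (-0.39) lay between. The HFD animals did not fall in one place. HFD 3, 4 and 5 were each below the lowest chow animal in 8 of the 10 genes, HFD 6 in 3 and HFD 1-2 in 0. The share of all genes below the lowest chow animal was not computed per animal, so these counts have no background to be read against. Without HFD 1-2, 6 of the 10 had a lower level at an unadjusted p under 0.05 (5.01% of all genes) and the median difference was -0.72. The count was 0 without HFD 3, HFD 5 or chow 2, 1 without HFD 4, chow 5 or chow 6, 5 without HFD 6, and 6 without chow 1.

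In HFD+PE against HFD, where both groups had the high fat diet and 1 had the extract, all 10 means were lower in HFD+PE (46.6% of all genes), and 0 of 10 reached an unadjusted p under 0.05 in that direction (1.06% of all genes). The median difference of the 10 was -0.31, against 0 over all genes. Cyp51 differed by -0.55 (SE 0.35, 95% interval -1.28 to 0.18), Sqle by -0.39 (95% interval -1.55 to 0.77) and Msmo1 by -0.42, all with a limma adjusted p of 0.993. The smallest unadjusted p among the 10 was that of Ebp, with a difference of -0.30 (SE 0.15, 95% interval -0.62 to 0.02, limma adjusted p = 0.993). Tm7sf2 differed by -0.32, with an interval of -1.21 to 0.57, so these animals leave the direction of the difference unsettled. Leaving out 1 animal moved this median to -0.11 (HFD+PE 1), -0.18 (HFD+PE 5), -0.64 (HFD+PE 3-4) or -0.16 (HFD 1-2).

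In HFD+PE against chow, which sets the high fat diet with the extract against the chow diet, the differences were the largest of the 3. All 10 means were lower in HFD+PE (45.6% of all genes), and 8 of 10 were lower at an unadjusted p under 0.05 (5.14% of all genes), with Lss and Nsdhl outside it. The median difference of the 10 was -0.92, against 0.01 over all genes. Sqle differed by -1.56 (SE 0.55, limma adjusted p = 0.279), a ratio of 0.339 in HFD+PE over chow. Tm7sf2 differed by -1.38 (SE 0.42, limma adjusted p = 0.223), a ratio of 0.384, and Cyp51 by -1.33 (SE 0.35, limma adjusted p = 0.153), a ratio of 0.398. Lss, the step between Sqle and Cyp51, differed less, by -0.53 (SE 0.25, limma adjusted p = 0.454). Msmo1 differed by -1.32, Dhcr7 by -0.93, Hsd17b7 by -0.91 and Ebp by -0.53, with limma adjusted p-values of 0.276, 0.257, 0.237 and 0.190 in that order. Sc5d (-0.30) and Nsdhl (-0.25) differed least. For 0 of the 10 genes did the groups separate fully (0.732% of all genes separated with HFD+PE lower), and HFD+PE 3-4 lay among or above the chow animals in each.

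**Figure D2:**
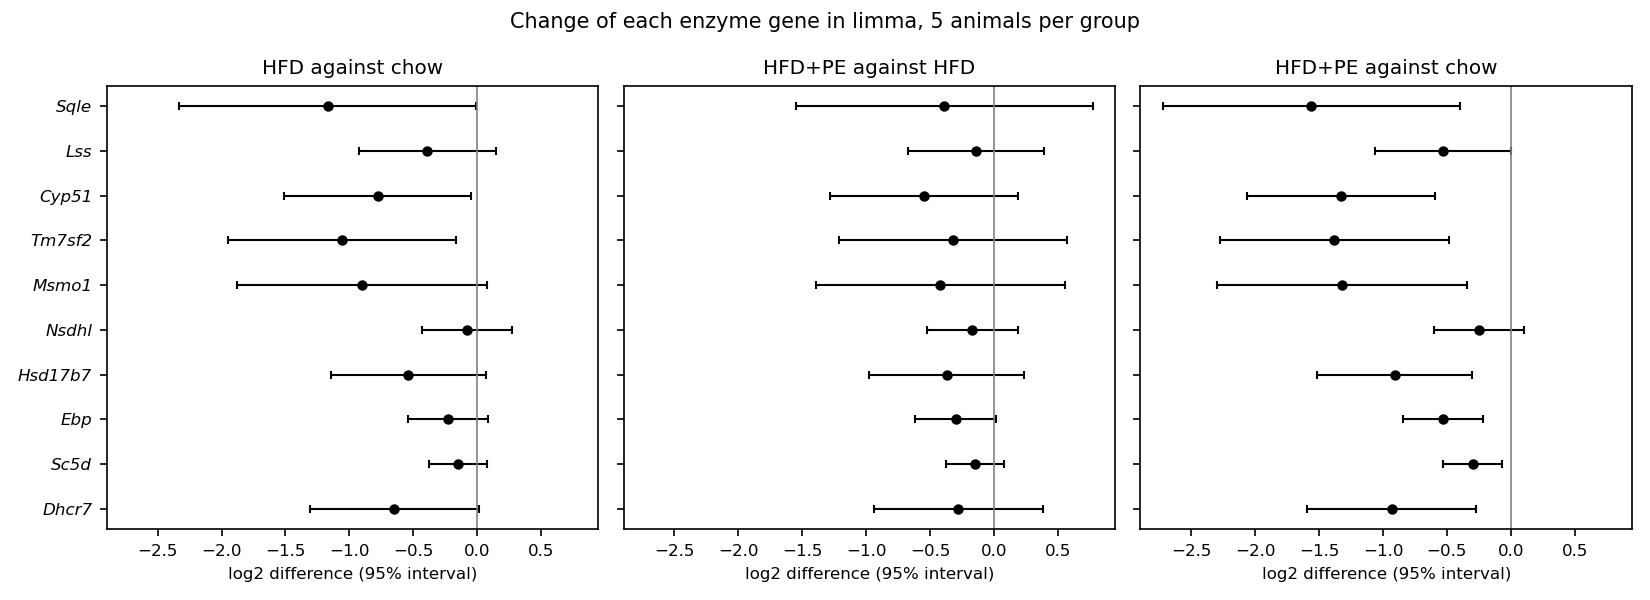
Difference between group means for each gene in the limma fit (log2 units, x axis) with its 95% interval, in pathway order from top to bottom, in 3 panels, 1 per comparison, with 5 animals per group. All points lie below 0. For HFD+PE against chow 8 of the 10 intervals lie below 0, but no gene passed the adjusted threshold.

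Asked of all 3 groups at once, the moderated F test gave an unadjusted p under 0.05 for 8 of the 10 genes (8.14% of all genes). Lss and Nsdhl were the other two. The smallest was for Cyp51 (limma adjusted p = 0.370), and 0 genes of the 14217 passed.

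Animal HFD+PE 3-4 stood apart from the rest of its group. It was the highest of its group in all 10 genes and the highest of all 15 animals in 7, and its mean over the 10 genes stood 0.44 log2 above the chow mean. The other HFD+PE animals stood at -1.48 (animal 1), -1.10 (animal 2), -1.40 (animal 5) and -0.996 (animal 6), each below the lowest chow animal in 9 or 10 of the 10 genes. The share of all genes below the lowest chow animal was not computed for these animals either. The arrays of the pair differed by at most 0.2 in these genes, so the high values were present on both. The HFD animals stood at -0.10 (1-2), -0.92 (3), -0.83 (4), -0.85 (5) and -0.29 (6), and the chow animals between -0.34 and 0.33. The spread was widest in HFD+PE in 9 of the 10 genes, with a median SD of 0.769 in HFD+PE, 0.434 in HFD and 0.263 in chow. HFD+PE was the widest group in 31.6% of all genes.

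Each animal was left out in turn. Without HFD+PE 3-4 (4 against 5 animals), 7 of the 10 genes passed the threshold and were lower in HFD+PE than in chow, among 24 of all genes (0.169%). This animal was the highest of its group in all 10 genes, so leaving it out had to widen each difference from chow. The p-values without it therefore show how far the results hang on 1 animal and are no evidence of a difference. In this fit Sqle had a log2 difference of -2.18 (limma adjusted p = 0.0291), Lss of -0.83 (0.0446), Cyp51 of -1.72 (0.00537) and Tm7sf2 of -1.90 (0.00459). Msmo1 was at -1.83 (0.0310), Ebp at -0.70 (0.00996) and Dhcr7 at -1.29 (0.0168). Hsd17b7, at -1.19 (limma adjusted p = 0.0617), Nsdhl, at -0.45 (0.124), and Sc5d, at -0.36 (0.253), did not pass. Of the 10, 10 had an unadjusted p under 0.05 (4.93% of all genes). For HFD+PE against HFD without this animal, 9 of 10 had an unadjusted p under 0.05 (1.3% of all genes), 0 passed the threshold (0.0141% of all genes), all limma adjusted p-values were 0.923 or more, and the median was -0.64. For HFD against chow, where leaving it out alters only the pooled spread, 8 of 10 had an unadjusted p under 0.05 (3.52% of all genes), with 0 past the threshold. With any other animal left out, 0 of the 10 genes passed in any comparison.

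**Figure D3:**
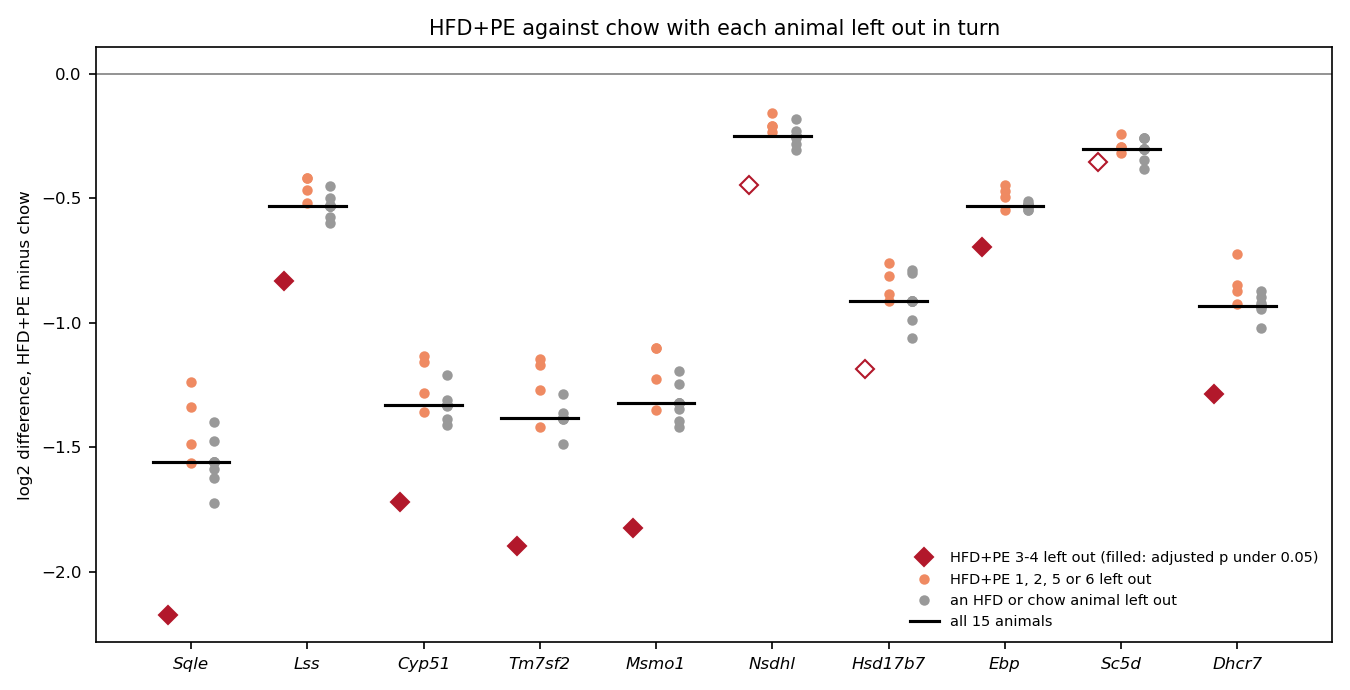
Difference between HFD+PE and chow for each gene (log2 units, y axis) when 1 animal is left out. Diamonds are the fit without HFD+PE 3-4, filled where the limma adjusted p was under 0.05 (7 of 10 genes), circles are fits without any other animal, and the black line is the fit of all 15 animals. No other animal moved the values as far for 9 of the 10 genes, Sc5d being the other one.

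Arrays also differed technically. The 12 probe sets for added hybridization controls averaged 12.35 to 12.9 on 5 arrays (HFD+PE 1 and 3, chow 1, 2 and 3) and 11.4 to 11.84 on the other 13. Within the low set, the median difference of the 10 genes was -0.63 for HFD against chow, -0.11 for HFD+PE against HFD and -0.84 for HFD+PE against chow. Within the high set, it was -0.56 for HFD+PE against chow, and there were no HFD arrays. The arrays HFD+PE 3 and 4 lay in different sets, with sterol enzyme levels within 0.2 of each other. The 3′ minus 5′ signal of beta-actin, a measure of RNA integrity, was 3.6 to 4.3 in HFD+PE, 3.1 to 4.0 in HFD and 3.3 to 4.1 in chow. That of Gapdh was 2.4 to 3.4 in HFD+PE, 2.1 to 3.2 in HFD and 2.1 to 3.2 in chow. Among HFD animals both were higher where the enzymes were lower. HFD 3, 4 and 5, the animals with the lower enzyme levels, had 4.0, 3.9 and 3.9 for beta-actin and 3.2, 3.0 and 3.1 for Gapdh. HFD 1, 2 and 6 had 3.5, 3.6 and 3.1 for beta-actin and 2.6, 2.6 and 2.1 for Gapdh. In HFD+PE the arrays 3 and 4, with the highest enzyme levels, had 4.3 and 3.8 for beta-actin and 2.8 and 2.7 for Gapdh. HFD+PE 1, 2, 5 and 6 had 4.0, 3.6, 3.8 and 3.7 for beta-actin and 3.4, 2.4, 3.1 and 3.0 for Gapdh. In chow the animal with the highest mean over the enzymes, chow 2, had the highest values of its group, 4.1 and 3.2. The part of RNA integrity in the results was not tested.

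Other probe sets existed for 5 of the genes, 6 in all, and served as a second reading of the same RNA. The second probe set of Cyp51 differed by -0.65 for HFD against chow, -0.72 for HFD+PE against HFD and -1.37 for HFD+PE against chow. That of Hsd17b7 gave -0.57, -0.21 and -0.78 for the same comparisons, and that of Lss -0.34, -0.06 and -0.40. All of these have the sign of the brightest probe set. The second probe set of Nsdhl stayed within 0.02 of 0 in each comparison, and one of the other Sc5d probe sets gave 0.16 for HFD+PE against chow, opposite in sign to the brightest.

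Within groups the 10 genes varied together. On deviations from group means over the 15 animals, the 45 pairs had a median Pearson r of 0.818, from 0.398 to 0.977. Sqle (median r 0.918 with the other members), Tm7sf2 (0.912) and Dhcr7 (0.911) lay at the centre, and Sc5d (0.614) at the edge. Without HFD+PE 3-4, the median over the 45 pairs was 0.526, from -0.05 to 0.956. These are descriptions: the genes share the same RNA samples and arrays.

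The 10 genes most like the mean of the enzymes, of 14207 others, were Acss2 (r 0.976), Fdps (0.972), Idi1 (0.969), Acat2 (0.929), Pgd (0.927), Pmvk (0.902), Apobec1 (0.889), Mvd (0.882), Fdft1 (0.881) and Srebf2 (0.856), against a median r of 0.0225 over all genes. Of these, 6 make squalene itself: Acat2 condenses acetyl-CoA, Pmvk and Mvd process mevalonate, Idi1 and Fdps build farnesyl diphosphate and Fdft1 joins it into squalene. Acss2 makes acetyl-CoA from acetate, Pgd produces NADPH in the pentose phosphate pathway, and Apobec1 edits the apolipoprotein B messenger. Without HFD+PE 3-4 these r values were 0.576 (Srebf2) to 0.936 (Idi1). Without both animals farthest from the median, HFD+PE 3-4 and HFD 1-2, they were 0.619 (Mvd) to 0.931 (Acss2).

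**Figure D4:**
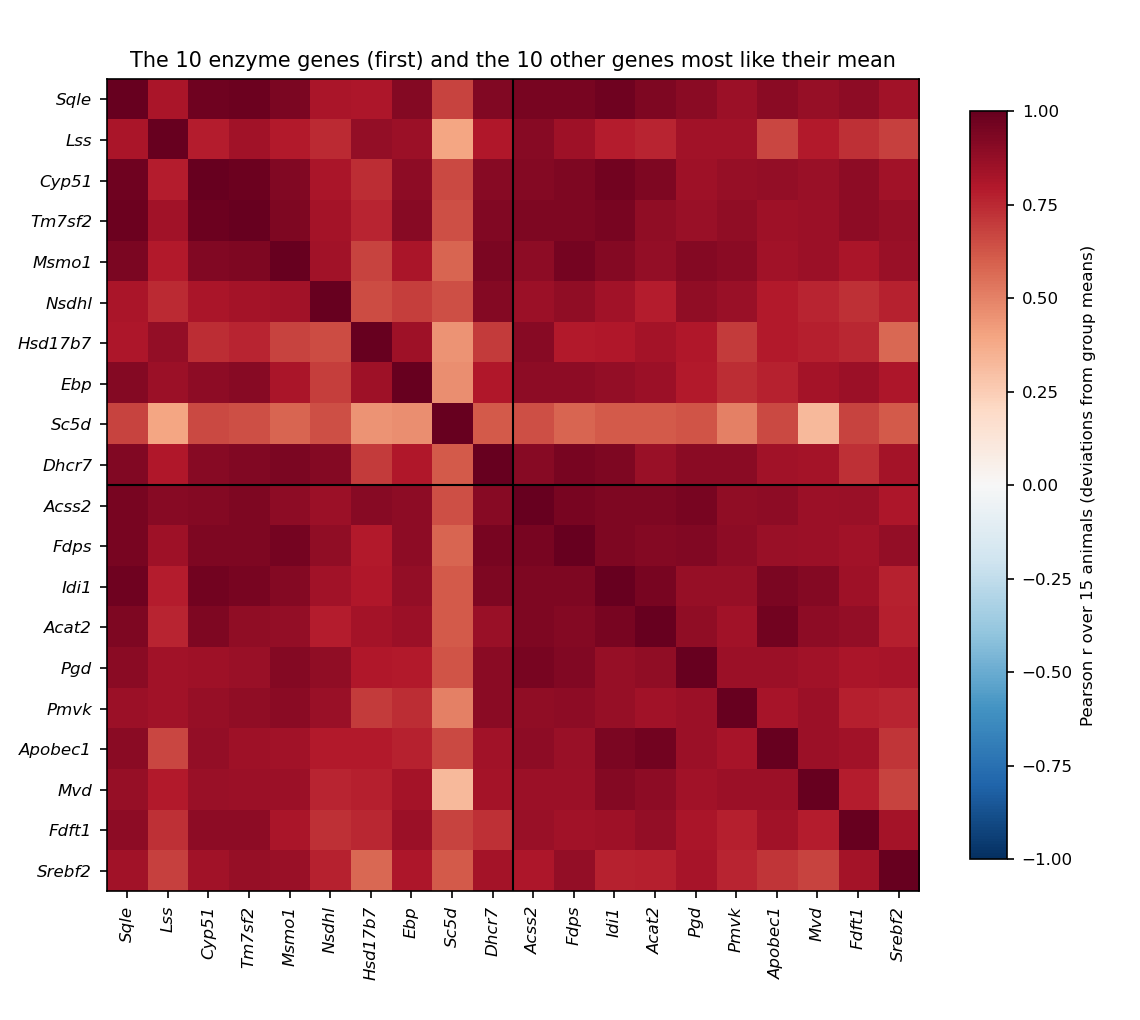
Pearson r between genes over 15 animals on deviations from group means (colour, from -1 to 1), with the 10 enzymes first and the 10 genes most like their mean after the black line. Sc5d is the paler row and column, and its r with Lss is the lowest of the 45 pairs of enzymes at 0.398.

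Upstream, 7 genes of the mevalonate part of the pathway were measured (Acat2, Mvk, Pmvk, Mvd, Idi1, Fdps and Fdft1). All 7 had a lower mean in HFD+PE than in chow (45.6% of all genes), 7 at an unadjusted p under 0.05 (5.14% of all genes) and 0 past the threshold, with a median of -0.77. Idi1 differed by -1.51 (SE 0.47), Fdps by -1.39 (SE 0.43) and Acat2 by -1.26 (SE 0.28, limma adjusted p = 0.108). Mvk differed by -0.62 (SE 0.18, limma adjusted p = 0.190), the smallest difference of the 7. The median was -0.73 for HFD against chow (3 of 7 at an unadjusted p under 0.05, 3.57% of all genes) and -0.34 for HFD+PE against HFD (0 of 7, 1.06% of all genes). A further list held related and accessory proteins, among them electron carriers, the scaffold Erg28, the sterol reductase Lbr, the Ebp homologue Ebpl and the lipid-binding protein Sec14l2. Of its 10 measured genes, 5 had a lower mean in HFD+PE than in chow (45.6% of all genes), and the median was -0.02. At an unadjusted p under 0.05, 1 was lower (Ebpl, -0.24, against 5.14% of all genes) and 1 higher (Sec14l2, 0.28, against 6% of all genes), near those shares. Por, the reductase that supplies electrons to Sqle and Cyp51, was higher in HFD than in chow by 0.47 (limma adjusted p = 0.627).

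Of the 8 genes of SREBP control and sterol uptake that were measured, 2 were lower and 3 higher (5.14% and 6% of all genes) in HFD+PE than in chow at an unadjusted p under 0.05, with 0 past the threshold and a median of 0.11. Insig1, which holds SREBP in the membrane and is itself induced by it, had levels of 8.5, 8.8, 11.15, 8.5 and 8.7 in HFD+PE animals, against 10.8, 9.9, 8.5, 10.1 and 10.9 in HFD animals and 11, 10.5, 11.3, 10.2 and 10.5 in chow animals. For Insig1, 4 HFD+PE animals lay under every chow animal, and 3-4 lay within the range of the chow animals. It differed by -1.57 between HFD+PE and chow (SE 0.49, limma adjusted p = 0.228). Srebf2 had levels of 7.5, 7.7, 8.35, 7.3 and 7.8 in HFD+PE animals, against 8.0, 7.9, 7.8, 7.9 and 8.0 in HFD animals and 8.0, 8.1, 8.0, 8.4 and 8.1 in chow animals, a difference of -0.39 between HFD+PE and chow (limma adjusted p = 0.311). Srebf1, which encodes the SREBP of fatty acid synthesis, was not lower on the high fat diet, with 9.9, 10, 10.65, 10.9 and 10.4 in HFD+PE animals, 9.6, 10.9, 10.2, 11.2 and 11 in HFD animals and 9.6, 9.6, 9.9, 10.1 and 9.9 in chow animals. It was higher by 0.76 in HFD than in chow (limma adjusted p = 0.569), and its r with the mean of the enzymes was -0.02 over 15 animals, -0.33 without HFD+PE 3-4 and 0.13 without both HFD+PE 3-4 and HFD 1-2.

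Of the 9 genes of sterol export and bile acid synthesis, 1 was higher at an unadjusted p under 0.05 for HFD+PE against chow, near the 6% of all genes, and 0 were lower. It was Abcg5, which encodes one unit of the transporter that moves sterols into bile. Its level was 5.5, 6.4, 7.1, 6.8 and 6.3 in HFD+PE animals, against 6.15, 5.5, 5.5, 4.8 and 5.8 in HFD animals and 5.4, 4.6, 5.6, 5.1 and 5.6 in chow animals. The HFD+PE animals overlapped the other groups through animal 1 alone, and HFD+PE 3-4 was the highest of all 15 animals. The difference was 1.16 for HFD+PE against chow (SE 0.28, limma adjusted p = 0.134) and 0.87 for HFD+PE against HFD (limma adjusted p = 0.993). Abcg8, which encodes the other unit, had dim means of 3.67 in HFD+PE and 3.47 in chow. Its difference was 0.20 (limma adjusted p = 0.718).

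Cell type markers were set beside these values. Hepatocyte markers were high in every group, Alb at 14.9 to 15 on the log2 scale, and 8 measured markers had a median difference of -0.01 for HFD+PE against chow. Their summed linear signal was 97007 to 102041 in HFD+PE, 89935 to 101386 in HFD and 93596 to 103462 in chow. Macrophage markers were lower, as the enzymes were. Of 11 measured, 10 had a lower level in HFD+PE than in chow (45.6% of all genes), 10 at an unadjusted p under 0.05 (5.14% of all genes) and 0 past the threshold, with a median of -0.82. Their summed signal was 3025 to 5404 in HFD+PE, 3429 to 6991 in HFD and 5595 to 11102 in chow. For 4 of the 11, every HFD+PE animal lay below every chow animal (0.732% of all genes). In HFD+PE 3-4 the macrophage markers stood 0.56 below the chow mean while the enzymes stood 0.44 above it. On deviations from group means over all animals, each macrophage marker had a positive r with the mean of the enzymes. The median r was 0.375, from 0.247 to 0.499, against 0.0225 over all genes. For HFD against chow, 11 of 11 macrophage markers had a lower level (46.6% of all genes), with a median of -0.53. Of these, 6 were at an unadjusted p under 0.05, against 3.57% of all genes. For HFD+PE against HFD 10 of 11 were lower (46.6% of all genes), with a median of -0.32 and 0 at an unadjusted p under 0.05 (1.06% of all genes). Of 10 markers of stellate cells, the collagen-making cells of liver, 8 had a lower level in HFD+PE than in chow (45.6% of all genes), 4 at an unadjusted p under 0.05 (5.14% of all genes). Their median was -0.32, with a summed signal of 1955 to 2424 in HFD+PE, 1738 to 2797 in HFD and 2243 to 2856 in chow. Of these 10, 3 separated fully, with HFD+PE below chow (0.732% of all genes). In the same comparison the median was -0.14 for 6 endothelial markers, -0.03 for 5 of bile duct cells, -0.06 for 8 of lymphocytes and -0.26 for 4 of red cells. At an unadjusted p under 0.05, Lyve1 (endothelial, -0.39) and Krt19 (bile duct, -0.69) were lower and Epcam (bile duct, 0.27) higher. The part of these cell types in the enzyme values was not tested. No marker can be at 0 on this log2 scale.

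**Figure D5:**
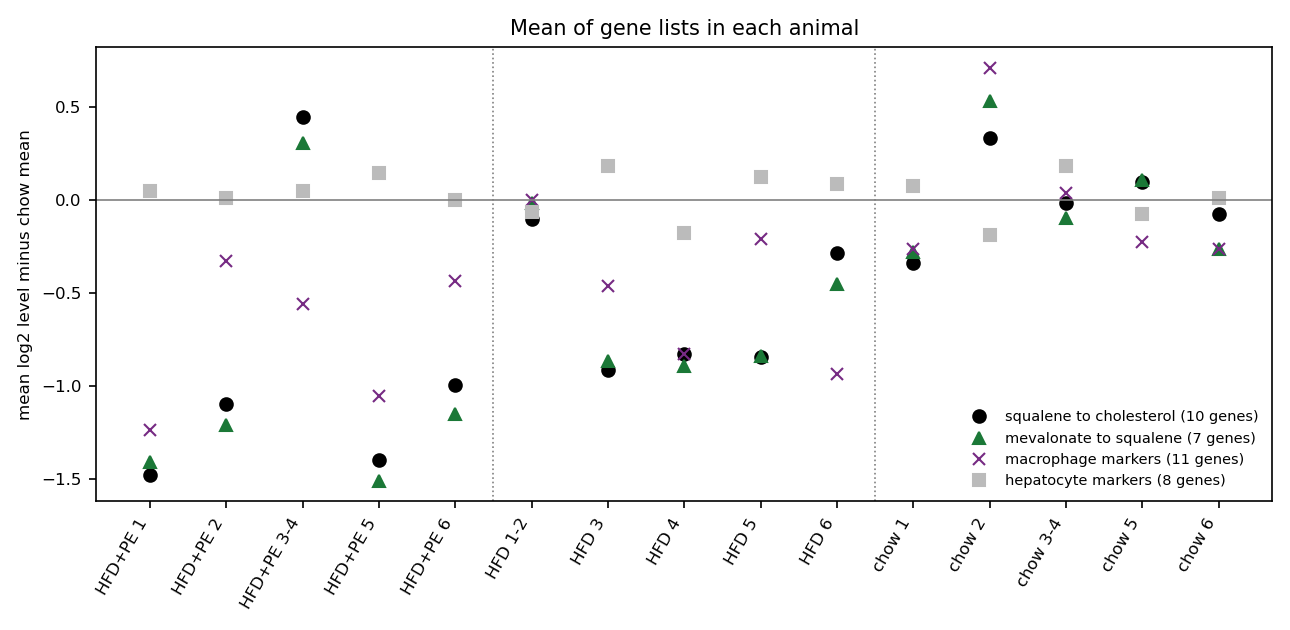
Mean log2 level of 4 gene lists in each animal, relative to the mean of the chow animals (y axis), with HFD+PE, HFD and chow animals from left to right. Circles are the 10 enzymes, triangles 7 genes from mevalonate to squalene, crosses 11 macrophage markers and squares 8 hepatocyte markers. The circles and triangles move together, and in HFD+PE 3-4 they lie above 0 while the cross lies at -0.56.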

How the data were processed

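Liver RNA of 3 groups of rats was hybridised to 18 Affymetrix arrays. The deposited values are log2 signals of 31099 probe sets, made by the authors with Affymetrix Expression Console and RMA, which corrects background, quantile-normalizes arrays and summarizes probes, per the submitters' processing notes, with no version given. All 559782 values were whole multiples of 0.1. Arrays have no read depth, and precision depends, among other things, on how many animals there were, on this rounding and on how bright a probe set is. Sqle was dim in HFD+PE 1, 2, 5 and 6, at 4.0 to 5.3, below the array medians of 5.4 to 5.5.

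Control probe sets (57) did not enter the tests. Platform annotation gave 1 symbol for 20826 probe sets, several for 436 and none for 9780. The brightest probe set per symbol gave 14217 genes. The group comparisons used limma 3.58.1 under R 4.3.3 (lmFit over 15 animals, eBayes with its default prior, two-sided, Benjamini-Hochberg over all genes, threshold 0.05), tested on simulated data. Likeness was Pearson's r on deviations from group means. Alternatives varied the arrays, probe sets, filter, scaling, blocks and prior, and left out each animal. Up to 4 genes per other list, those with the smallest unadjusted p, were named, besides Srebf2, Insig1 and Abcg8, the partner of Abcg5. The genes, lists and tests were chosen with earlier results of these data known. Replicate numbers did not pair the samples across groups.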

Additional observations from a re-analysis of the deposited data

Results flagged for a closer look

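In 2 of 30 sets of 5 animals (10 genes in 3 groups), the highest animal lay far from the others by Dixon's criterion, which chance meets in about 1 group in 20. Both were HFD+PE 3-4. Lss had a level of 8.25 in this animal, against 7.0 in the next of its group. Nsdhl had a level of 11.55, against 10.7 in the next. Each value is the mean of the 2 arrays of this animal.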

How the results depend on the processing

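No enzyme turned its direction in any alternative for HFD against chow or HFD+PE against chow, though Lss was at 0 for HFD+PE against chow in the arrays with high hybridization controls. For HFD+PE against HFD it turned for Lss (0.0167 with 18 arrays as separate animals, with or without the replicate block) and for Sc5d (0.00667 with the mean of all probe sets). The replicate numbers did not pair the samples: of 18 correlations between same-numbered arrays, 4 were over 0.1 (from -0.305 to 0.189).

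For HFD against chow, the enzymes with an unadjusted p under 0.05 numbered 1 with 18 separate arrays, with low hybridization controls only, with the mean of probe sets, with a trend and robust prior, and with the replicate block, and 0 to 8 when 1 animal was left out. Genes past the threshold numbered 1 with the hybridization covariate or the low arrays, and 0 to 1 on leaving out an animal. The median of the enzymes was -0.72 to -0.50 on leaving out an animal.

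For HFD+PE against HFD, leaving out an animal gave 0 to 2 genes, 0 to 9 enzymes at an unadjusted p under 0.05, and a median of -0.64 to -0.11.

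For HFD+PE against chow, genes past the threshold numbered 145 with 18 separate arrays, 119 with the replicate block, 29 with the animal as a random block, 18 with the hybridization covariate, 3 in the low arrays and 0 to 26 on leaving out an animal. Enzymes past it numbered 0 to 7, and those at an unadjusted p under 0.05 numbered 5 with the replicate block, 0 in the high arrays (2 against 3, an alternative chosen after seeing the data) and 8 to 10 on leaving out an animal. The median was -1.24 to -0.80 on leaving out an animal and -0.94 to -0.56 in the other alternatives.

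Any difference between the groups was past the threshold for 19 genes with 18 separate arrays, 29 with the replicate block, 1 with the hybridization covariate, 3 in the low arrays and 0 to 12 on leaving out an animal. Enzymes past it numbered 0 to 3, and those at an unadjusted p under 0.05 were 3 with 18 arrays or the replicate block, 0 in the low arrays, 5 with a trend and robust prior, and 3 to 10 on leaving out an animal. Where calls moved, the cause was not tested, except that the low and high arrays and left-out animals also mean fewer samples. Over all alternatives, the enzymes' adjusted p in limma was 0.374 to 0.996 for HFD against chow, 0.923 to 1 for HFD+PE against HFD and 0.00459 to 1 for HFD+PE against chow.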
